A study of Mus musculus with 2 samples.

Results

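The genes described here are 9 members of the SLC22 family of solute carriers, Slc22a3, Slc22a5, Slc22a7, Slc22a15, Slc22a17, Slc22a23, Slc22a26, Slc22a27 and Slc22a30, taken by symbol from the 33696 gene identifiers of a single-cell RNA sequencing study of mouse liver. All 9 symbols matched 1 identifier each. The study compared liver tissue of Slc22a18-/- mice with that of Slc22a18+/+ mice, 1 library each, so there were no replicates and no test was run. The targeted gene, Slc22a18, is an imprinted relative of the 9 members, and the series title names fatty liver and a β-catenin and Ascl2 axis. The labels give 1 liver sample per library and no treatment. The sources used here name neither strain, age or sex nor the number of animals or which exons were removed.

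SLC22 proteins are membrane transporters of the major facilitator superfamily that carry organic cations, organic anions, carnitine and related zwitterions across the plasma membrane. In the liver several stand on the blood side of hepatocytes and take up drugs, monoamines, nucleotides, urate and carnitine, the cofactor that shuttles long-chain fatty acids into mitochondria. Slc22a3 (OCT3) is an organic cation and monoamine transporter, Slc22a5 (OCTN2) the sodium-dependent carnitine transporter and Slc22a7 (OAT2) an organic anion transporter. Human SLC22A15 carries zwitterions such as ergothioneine. Slc22a17 is known as a receptor for the iron-binding protein lipocalin-2, and Slc22a23 has no established substrate. Slc22a26, Slc22a27 and Slc22a30 belong to a rodent group of organic anion transporter genes.

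In the library labelled knockout, 11741 barcodes carried 103478998 unique molecular identifiers (UMIs, each standing for 1 captured RNA molecule). In the wild-type library 12796 barcodes carried 105556354. After filtering, 11104 and 12002 cells were kept, and 38 barcodes occurred in both libraries before filtering. Slc22a18 gave 1390 UMIs in hepatocytes of the library labelled knockout and 1523 in those of the wild-type library, so its hepatocyte counts did not verify the label. With endothelial cells cut to 6529 UMIs each, 0.693% (0.359% to 1.21%) and 2.46% (1.81% to 3.26%) held a Slc22a18 UMI. At 1500 UMIs the shares were 0.319% (0.128% to 0.656%) and 0.558% (0.297% to 0.952%). In resident macrophages (Kupffer cells) the order of the libraries changed with depth, and the intervals overlapped at each depth. The shares were 1.54% and 1.29% at 1300 UMIs, and 1.32% and 1.959% at 1500 UMIs. Reads from the end of the transcript can miss a deletion that lies elsewhere in the gene, and then they check nothing. Xist reached 3222 and 2699 counts per 1000000 UMIs (CPM) in the same hepatocytes, and the Y-linked genes Eif2s3y and Kdm5d had 0 UMIs in both, Ddx3y had 17 and 9, and Uty had 2 and 1. All directions below therefore go by the labels. They cannot be told apart from differences between animals, dissociations or runs, and all 95% intervals cover counting error only.

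All 9 genes lie on minus strands in the GENCODE vM21 annotation of GRCm38. Slc22a26, Slc22a27 and Slc22a30 lie close together on chromosome 19, between 7781041 and 8405111. Their coding sequences are the closest in the set. Slc22a27 and Slc22a30 shared 91.8% of 1653 aligned bases, Slc22a26 and Slc22a27 shared 74.7%, and Slc22a26 and Slc22a30 shared 74.4%. Every other pair of members shared 56.7% to 63.5%. Because 3′ libraries read the end of a transcript, the last 500 bases were compared with all other genes in windows of 50 bases. The bases came from a chosen transcript of each member, and other transcript ends of the members were not compared. Slc22a5 shared 74.1% of its windows with Slc22a21, its neighbour in the family, so its counts are uncertain wherever the counting could split such reads. Slc22a27 shared 13.3% with Slc22a29, Slc22a30 shared 6.43% with Slc22a28, and the other 6 shared none of the windows compared. Slc22a3 also overlaps Plg, an abundant hepatocyte gene on the opposite strand.

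The promoters of the members differ in their content of CG dinucleotides, and 4 of them are printed because they belong to genes with opposite patterns over cell classes described below. Slc22a26 and Slc22a30 were read mainly in hepatocytes, while Slc22a5 and Slc22a15 were read in many classes. Each sequence is the 250 bases before the RefSeq start of the gene on its own strand, from GRCm38.p6, with every CG in capitals. Slc22a26 is chr19:7802668-7802917, Slc22a30 is chr19:8405106-8405355, Slc22a5 is chr11:53891704-53891953 and Slc22a15 is chr3:101924454-101924703, all on the minus strand.
Slc22a26: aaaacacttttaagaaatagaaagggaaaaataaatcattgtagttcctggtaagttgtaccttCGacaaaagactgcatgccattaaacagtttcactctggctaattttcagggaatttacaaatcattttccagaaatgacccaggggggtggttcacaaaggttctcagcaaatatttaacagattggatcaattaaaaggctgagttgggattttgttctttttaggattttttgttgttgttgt
Slc22a30: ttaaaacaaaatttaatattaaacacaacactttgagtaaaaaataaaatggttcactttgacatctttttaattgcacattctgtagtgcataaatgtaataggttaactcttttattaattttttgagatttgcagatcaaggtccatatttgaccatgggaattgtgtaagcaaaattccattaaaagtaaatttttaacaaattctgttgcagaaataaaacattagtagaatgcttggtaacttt
Slc22a5: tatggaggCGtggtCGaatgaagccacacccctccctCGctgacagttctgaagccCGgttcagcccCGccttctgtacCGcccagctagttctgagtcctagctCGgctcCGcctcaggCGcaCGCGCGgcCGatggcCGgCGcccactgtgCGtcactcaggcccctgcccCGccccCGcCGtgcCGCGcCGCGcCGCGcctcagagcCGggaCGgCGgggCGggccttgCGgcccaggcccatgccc
Slc22a15: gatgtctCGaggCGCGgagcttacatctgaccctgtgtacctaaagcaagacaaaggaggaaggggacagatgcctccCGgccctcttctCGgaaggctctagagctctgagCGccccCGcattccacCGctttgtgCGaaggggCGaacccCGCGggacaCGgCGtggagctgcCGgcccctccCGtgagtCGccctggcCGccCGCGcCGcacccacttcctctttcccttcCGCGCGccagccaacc
Slc22a26 held 1 CG and Slc22a30 held 0, against 30 in Slc22a5 and 24 in Slc22a15. The median over 32851 RefSeq promoters was 6. Of the members not printed, Slc22a27 held 4, Slc22a3 held 5, Slc22a17 held 8 and Slc22a23 held 32. Slc22a23 was also highest in hepatocytes but held the most, so CG content did not follow the class pattern throughout. Slc22a7 was not matched in this table. Both strands were searched for 6 motifs. They were CAAAGTCCA for HNF4 (in 0.384% of all promoters), CTTTGAT for TCF (3.21%), TATAAA for the TATA box (12.4%), TTGCGCAA for C/EBP (0.164%), TTCNNNGAA for STAT (7.02%) and the HNF1 motif (0.00913%). The STAT-type letters were found in Slc22a26, at 141 to 133 bases before the start, and in Slc22a15, at 164 to 156 bases before it. The other 5 motifs were found in none of the 8 promoters.

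Levels over cell classes were read as CPM, the summed UMIs of a gene in a class per 1000000 UMIs of that class, for 12 classes named from marker genes. In both libraries 5 of the 9 members were highest in hepatocytes (Slc22a7, Slc22a23, Slc22a26, Slc22a27 and Slc22a30). The share of all genes highest in hepatocytes was not counted, so whether 5 of 9 is many cannot be said. Slc22a15 was highest in neutrophils, Slc22a5 in endothelial cells and Slc22a17 in cholangiocytes, again in both libraries. Slc22a3 was highest in hepatocytes in the library labelled knockout, and in neutrophils in the wild-type library from 4 UMIs. A further 19.7% and 20.6% of cells lay in 9 clusters that were left unnamed, and classes stand for cells that carry their markers.

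**Figure D1:**
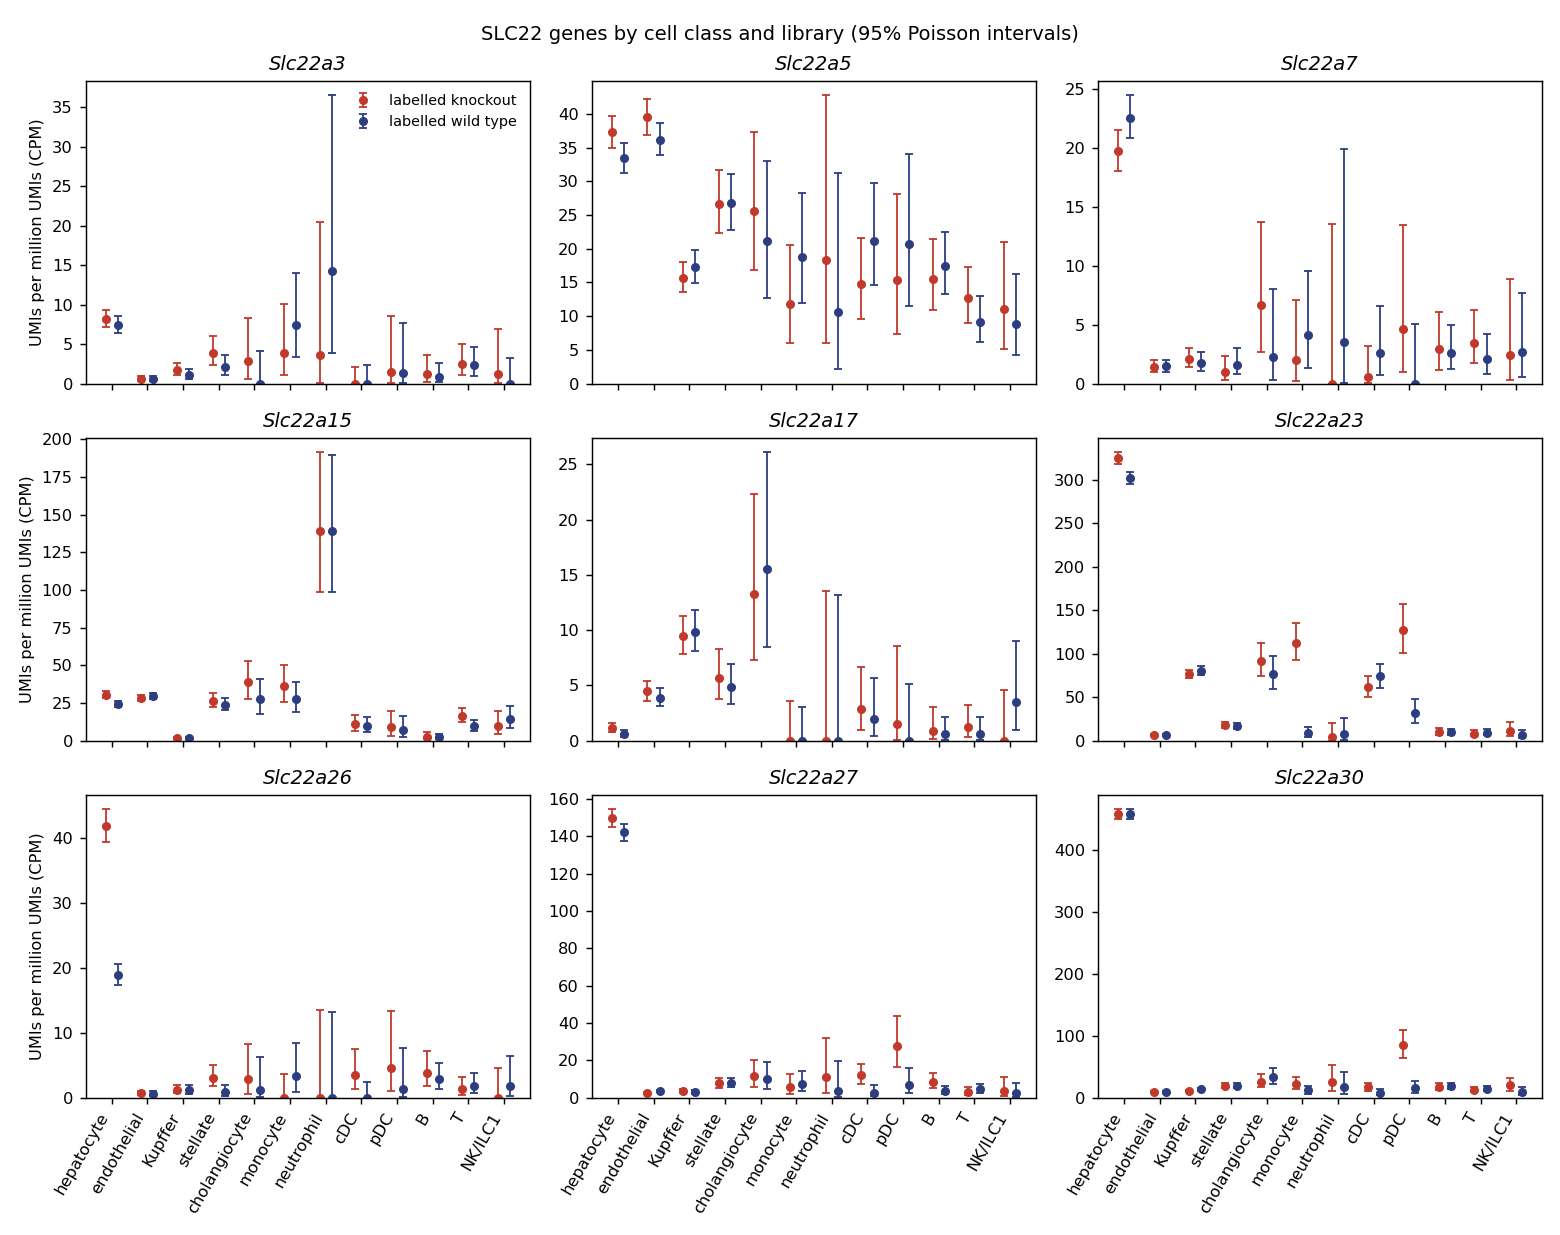
Levels of the 9 SLC22 genes in 12 cell classes, as UMIs per 1000000 UMIs of the class (y axis, linear, a scale of its own for each gene), in the library labelled knockout (red, left) and in the wild-type library (blue, right). Points are the summed level of 1 library and bars are 95% Poisson intervals. Slc22a26, Slc22a27 and Slc22a30 stand above the other classes in hepatocytes alone, Slc22a15 stands highest in neutrophils, and Slc22a26 is the member whose hepatocyte intervals lie farthest apart.

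Slc22a30 had 457 CPM in hepatocytes of the library labelled knockout and 457 CPM in those of the wild-type library, from 12024 and 12172 UMIs. Slc22a27 had 150 and 142 CPM, from 3936 and 3782 UMIs. Slc22a26 had 41.9 and 18.9 CPM, from 1101 and 503 UMIs. All 3 belong to the organic anion transporter group of chromosome 19. In endothelial cells, which should lack them, Slc22a30 stood at 1.99% of its hepatocyte level in both libraries, Slc22a27 at 1.62% and 2.43%, and Slc22a26 at 1.501% and 3.01%. Background was read from 2 sets of hepatocyte genes. A set of 10 plasma-protein genes stood at a median of 10.7% and 11.03% of the hepatocyte level in endothelial cells, and a set of 10 other hepatocyte genes, chosen after seeing the data, at 2.03% and 2.10%. The 3 members stood under the first median and near the second. In plasmacytoid dendritic cells of the library labelled knockout Slc22a30 stood at 18.4% of its hepatocyte level, against 3.31% in the wild-type library. The 10 other hepatocyte genes stood there at a median of 17.04% and 3.28%, and the plasma-protein genes at 20.7% and 16.99%. The class held 82 and 107 cells. Their part in the result was not tested.

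Slc22a23, the orphan member, had 325 and 302 CPM in hepatocytes of the library labelled knockout and of the wild-type library. Kupffer cells, which are resident liver macrophages, had 76.6 and 80.4 CPM, cholangiocytes 92.1 and 76.6 CPM, and conventional dendritic cells 61.3 and 73.9 CPM. In Kupffer cells this was 23.6% and 26.6% of the hepatocyte level. The 10 other hepatocyte genes stood there at a median of 2.36% (range 1.40% to 21.2%) and 2.67% (1.61% to 17.9%). The plasma-protein genes stood there at 13.6% (range 10.8% to 28.3%) and 15.1% (10.4% to 22.2%), so the share of Slc22a23 in the library labelled knockout lay within their range and that in the wild-type library above it. Plasmacytoid dendritic cells, with 82 and 107 cells, had 127 and 31.7 CPM from 83 and 23 UMIs, a ratio of 4.01 (2.50 to 6.67), beside the differing shares of other hepatocyte genes given above. Endothelial cells had 5.93 and 6.06 CPM, which was 1.82% and 2.01% of the hepatocyte level. Lymphocytes lay between 6.16 and 11.1 CPM.

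Slc22a7, the organic anion transporter OAT2, had 19.7 CPM in hepatocytes of the library labelled knockout (18.04 to 21.5) and 22.5 CPM in those of the wild-type library (20.8 to 24.4). Endothelial cells had 1.39 and 1.46 CPM, and the other 10 classes had at most 6.65 CPM. Slc22a3, the cation transporter OCT3, had 8.18 and 7.48 CPM in hepatocytes from 215 and 199 UMIs. Its UMIs elsewhere were few, with 22 and 12 in Kupffer cells and 19 and 13 in stellate cells. No order of the smaller classes could be read for either gene at this depth.

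Slc22a5, the carnitine transporter, was read at similar levels in the largest classes. Endothelial cells had 39.5 CPM in the library labelled knockout (36.9 to 42.2) and 36.2 CPM in the wild-type library (33.9 to 38.7), and hepatocytes had 37.3 CPM (35.0 to 39.7) and 33.4 CPM (31.3 to 35.7). The intervals of these neighbours overlapped in each library, so their order was not resolved. Stellate cells followed with 26.7 CPM in both libraries, and Kupffer, B, T and natural killer cells lay between 8.80 and 17.4 CPM. Its near-copy Slc22a21 had 4.68 and 4.43 CPM in hepatocytes.

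Slc22a15 had 139 CPM in neutrophils of both libraries, from 38 UMIs in 78 cells of the library labelled knockout (98.7 to 191) and 39 UMIs in 99 cells of the wild-type library (98.8 to 190). A UMI was found in 33.3% and 26.3% of these neutrophils, which had a median of 2630 and 2583 UMIs. Kupffer cells, with a median of 8490.5 and 8167 UMIs, had a Slc22a15 UMI in 1.31% and 1.34% of cells. No single neutrophil held more than 5 of the UMIs. Hepatocytes (30.6 and 24.5 CPM), endothelial cells (28.2 and 29.5), stellate cells (26.5 and 23.8), monocytes (36.3 and 27.8) and cholangiocytes (38.9 and 27.8) formed a broad middle level, and B cells stood at 2.52 and 2.33 CPM. Neutrophils stood above every other class in both libraries, and Kupffer cells were among the lowest.

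Slc22a17, the lipocalin-2 receptor gene, went the other way among the macrophage classes. Kupffer cells had 9.48 CPM in the library labelled knockout (7.88 to 11.3) and 9.81 CPM in the wild-type library (8.08 to 11.8), from 123 and 113 UMIs. Monocytes had 0 UMIs in both libraries, where a count of 0 allows up to 2.94 and 2.45 CPM (3 counts per library). Cholangiocytes had 13.3 and 15.6 CPM from 14 UMIs each, and their intervals overlapped those of Kupffer cells. Stellate cells had 5.71 and 4.86 CPM, endothelial cells 4.45 and 3.86 CPM, and hepatocytes 1.103 and 0.601 CPM from 29 and 16 UMIs.

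The genes whose levels ran most like each member over the 24 class and library points were picked by Pearson's r as a description. The points share libraries and differ in depth, so no p is given. Each r is the largest among 13805 genes. Slc22a30 ran closest to Pzp (r = 0.982), a plasma protease inhibitor of hepatocytes, and to Pcx (0.982), pyruvate carboxylase. Slc22a27 ran closest to Pcx as well (0.973), and Slc22a26 to Slc43a1 (0.904). Slc22a5 ran closest to the copper transporter Slc31a1 (0.909) and Slc22a15 to Syne1 (0.811). Slc22a7 ran closest to Gm12781 (0.912), Slc22a23 to 5730522E02Rik (0.872), Slc22a17 to Tmem230 (0.862) and Slc22a3 to Svil (0.793).

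The comparison of hepatocytes asks whether relatives of the targeted transporter differed between the libraries. Slc22a26 was the member that differed most, with 41.9 CPM in the library labelled knockout (39.4 to 44.4) and 18.9 CPM in the wild-type library (17.3 to 20.6), a ratio of 2.22 (1.99 to 2.47). It was found in 665 of 3166 hepatocytes and in 374 of 3246. A gene was called by size, with no test, where its ratio was at least 2 in either direction on at least 50 UMIs, its interval excluded 1, and at least 5% of cells in the higher library held a UMI. Slc22a26 met this rule toward the library labelled knockout, as did 0.287% of 14642 genes, and no member met it toward the wild-type library, where 0.143% did. Of the 9 members, 8 had at least 50 UMIs, and Slc22a17 with 29 and 16 UMIs did not.

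The other 7 members with enough UMIs had ratios between 0.874 and 1.25. Slc22a15 had 805 and 651 UMIs and a ratio of 1.25 (1.13 to 1.39). Slc22a5 had 980 and 890 UMIs and a ratio of 1.11 (1.02 to 1.22), and Slc22a23 a ratio of 1.08 (1.04 to 1.11). The closest relatives of Slc22a26 in sequence and position lay near equal levels. Slc22a27 had a ratio of 1.05 (1.01 to 1.102) and Slc22a30 a ratio of 0.9999 (0.975 to 1.03). Slc22a3, the cation transporter, had 1.09 (0.898 to 1.33). Slc22a7, with 518 and 600 UMIs, had 0.874 (0.775 to 0.985) and was the single member with an interval below 1. Intervals above 1 were found for 5 of 8 members, against 26.4% of 14642 genes, and below 1 for 1 of 8, against 15.9%. The median log2 ratio was 0.12 over the 8 members and 0.05 over all genes.

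**Figure D2:**
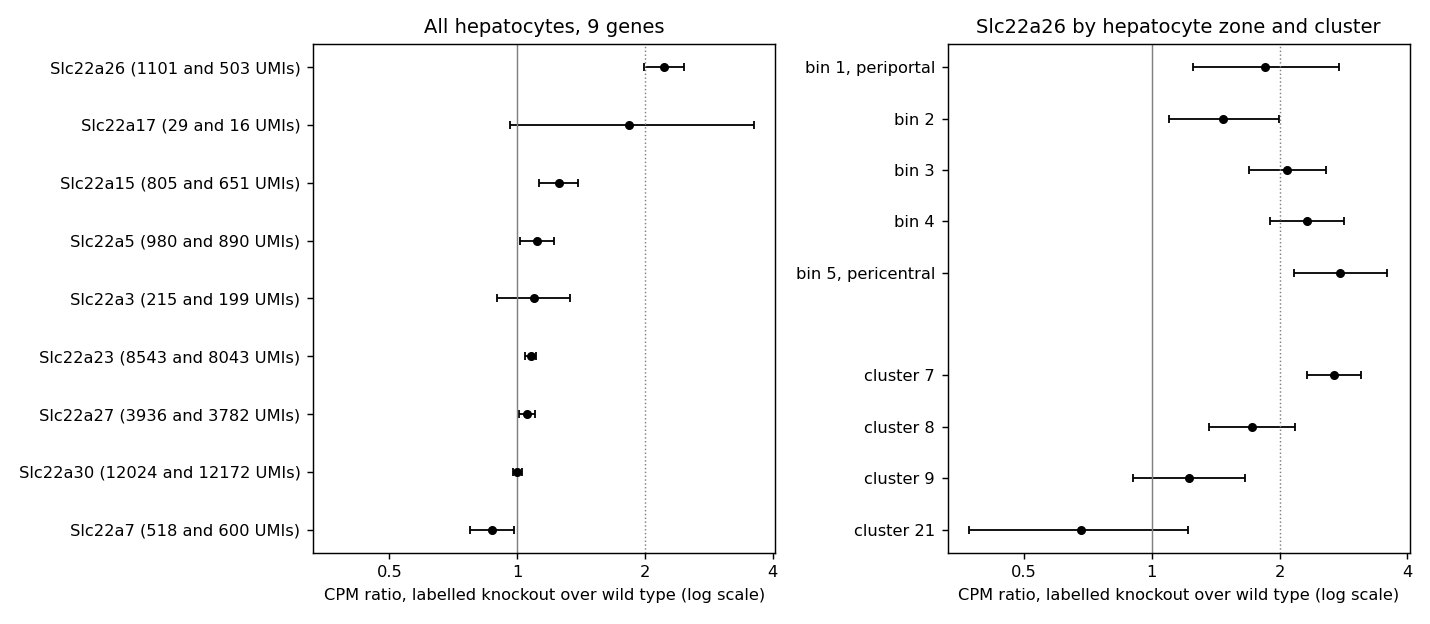
Ratio of CPM in the library labelled knockout over the wild-type library (x axis, log scale) for the 9 SLC22 genes in all hepatocytes (left, with the UMIs of the library labelled knockout first) and for Slc22a26 in 5 zone bins and 4 hepatocyte clusters (right). Points are ratios, bars are 95% Clopper-Pearson intervals and the dotted line marks 2. Slc22a26 stands at 2.22, the other members with at least 50 UMIs between 0.874 and 1.25, and within hepatocytes it ranges from 0.682 in cluster 21 to 2.77 in the pericentral bin.

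The Slc22a26 difference was one of cells with more UMIs as well as of more cells with any. At least 3 UMIs were found in 76 hepatocytes of the library labelled knockout and in 28 of the wild-type library, with 20 and 8 UMIs in the highest cell. Hepatocytes of the library labelled knockout were also read more deeply, with a median of 5338 against 4876.5 UMIs. After each hepatocyte was thinned to 2637 UMIs and shallower cells were left out (544 and 739), 9.497% (8.40% to 10.7%) and 4.19% (3.44% to 5.05%) of cells held a UMI. Unthinned shares were 21.004% and 11.5%. At 1500 UMIs per cell, 5.60% and 2.95% of hepatocytes held a Slc22a26 UMI, against 0.0911% and 0.0858% of endothelial cells.

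Within hepatocytes the difference was not even. The 4 clusters of the class differed in Malat1, a nuclear RNA, at 36562 and 39950 CPM in cluster 7 and 44390 and 48404 CPM in cluster 8. Cluster 9 had 19898 and 16453 CPM and cluster 21 had 1260 and 1354 CPM. Slc22a26 in cluster 7, the largest and mostly pericentral cluster, had 55.2 and 20.6 CPM and a ratio of 2.69 (2.32 to 3.11), which met the size rule as 0.493% of genes did there. In cluster 8, mostly periportal, it had 34.5 and 20.1 CPM and a ratio of 1.72 (1.36 to 2.17). In cluster 9 it had 30.5 and 24.9 CPM, with a ratio of 1.23 (0.904 to 1.66), and in cluster 21, from 19 and 37 UMIs, 5.43 and 7.96 CPM, with a ratio of 0.682 (0.371 to 1.22). The interval excluded 1 in the Malat1-rich clusters 7 and 8 and included it in clusters 9 and 21. The difference between clusters was not tested.

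Cluster 7 made up 43.4% of hepatocytes in the library labelled knockout and 33.5% in the wild-type library, and cluster 21 made up 18.9% and 24.1%. With the same cluster weights in both libraries the Slc22a26 ratio was 1.98, and the gene then fell short of the size rule. With clusters 7 and 8 alone it was 2.44 (2.16 to 2.76), and with clusters 9 and 21 alone it was 1.04 (0.797 to 1.35). The part of Malat1-rich cells in the result was not otherwise tested. Slc22a30 had a hepatocyte ratio of 0.9999 but 0.897 (0.870 to 0.925) in cluster 7, 0.846 (0.801 to 0.893) in cluster 8, 1.16 (1.05 to 1.27) in cluster 9 and 0.722 (0.538 to 0.963) in cluster 21. Slc22a23 likewise had 0.958 (0.924 to 0.994) in cluster 7 and 0.895 (0.836 to 0.958) in cluster 8, against 1.20 (1.07 to 1.35) in cluster 9.

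**Figure D3:**
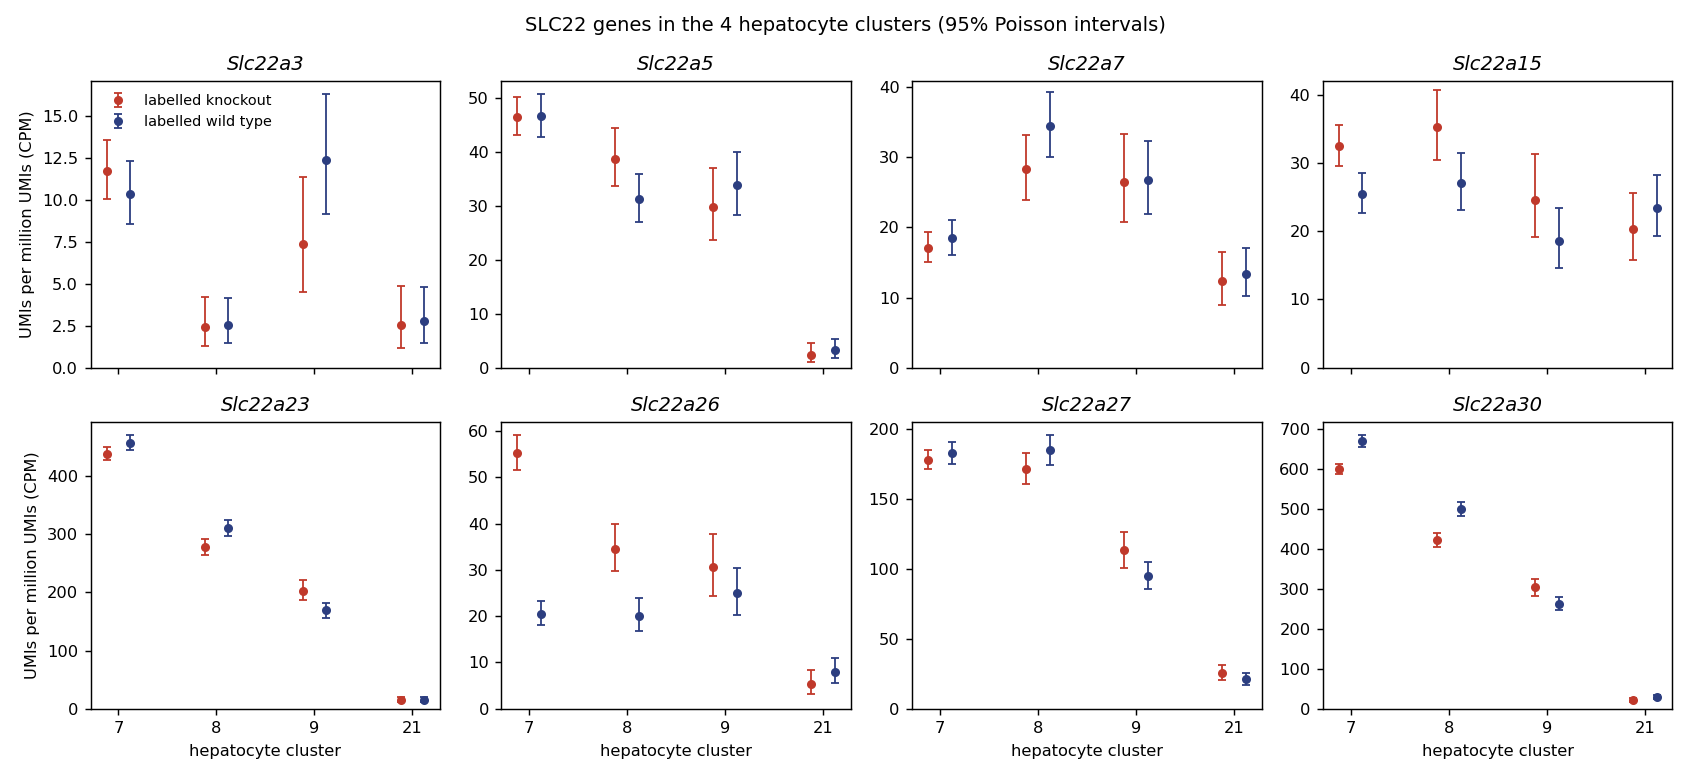
Levels of 8 SLC22 genes in the 4 hepatocyte clusters (x axis), as UMIs per 1000000 UMIs (y axis, linear), in the library labelled knockout (red, left) and in the wild-type library (blue, right), with 95% Poisson intervals. Slc22a5, Slc22a23 and Slc22a30 are at 3.46% to 6.94% of their cluster 7 level in cluster 21, whose Malat1 level is lowest, while Slc22a7 and Slc22a15 are at 62.5% to 92.2%.

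The same clusters showed a trait in which the members differed among themselves. In cluster 21, Slc22a30 had 21.4 and 29.7 CPM, 3.57% and 4.43% of its level in cluster 7. Slc22a23 stood at 3.46% and 3.49% of its cluster 7 level, and Slc22a5 at 4.93% and 6.94%. Slc22a7 was at the other end with 71.8% and 72.4%, beside Slc22a15 with 62.5% and 92.2%. Slc22a26 stood at 9.84% and 38.7%, Slc22a27 at 14.3% and 11.7% and Slc22a3 at 22.0% and 27.1%. The median over all genes with enough UMIs was 36.8% (12327 genes) and 39.2% (11979 genes), and 19.1% and 17.2% of genes stood at 10% or less. Exons make up 33.5% of the Slc22a7 gene and 20.7% of Slc22a15, against 3.85% of Slc22a23, 4.83% of Slc22a30, 11.3% of Slc22a5 and 13.6% of Slc22a26. Slc22a27 (2.12%) and Slc22a3 (5.09%) have small exon shares too but kept more of their level in cluster 21 than Slc22a5 did, so the order of the members did not follow exon share throughout. Whether exon content or nuclear RNA had a part in this was not tested.

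Zones were read from a score of 10 pericentral and 10 periportal landmark genes, in 5 bins of equal cell number over both libraries. Slc22a3 had the steepest zone pattern of the members and was highest near the central vein. Its levels over bins 1 to 5, from periportal to pericentral, were 1.13, 3.75, 2.41, 7.85 and 21.6 CPM in the library labelled knockout and 1.83, 2.53, 5.11, 5.99 and 20.5 CPM in the wild-type library. The ratio of bin 5 over bin 1 was 19.2 (6.40 to 94.2) and 11.2 (5.24 to 28.5), resting on 3 and 7 UMIs in bin 1. Plg, which overlaps it on the other strand, had ratios of 1.26 and 1.28.

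Slc22a5 and Slc22a23 were also higher toward the central vein in both libraries. Slc22a5 had 23.7, 27.8, 34.5, 42.1 and 49.4 CPM over the bins of the library labelled knockout and 21.5, 20.1, 32.4, 40.2 and 48.1 CPM over those of the wild-type library, with end ratios of 2.09 (1.58 to 2.79) and 2.24 (1.74 to 2.91). Slc22a23 had 422 and 376 CPM in bin 5 and 165 and 174 CPM in bin 1, with end ratios of 2.55 (2.30 to 2.83) and 2.15 (1.97 to 2.36). An end ratio of at least 2 toward the central vein in both libraries was met by these 3 members of 8 with enough UMIs, against 3.58% of 12305 genes, and toward the portal end by none, against 2.59%. Slc22a30 met the limit in 1 library, with 2.07 (1.90 to 2.25) and 1.70 (1.59 to 1.83). Bin 1 held mostly cluster 8 and bin 5 mostly cluster 7, and cluster 21 made up 28.2% and 25.9% of bin 1 and 10.02% and 18.8% of bin 5. Within clusters 7 and 8 alone Slc22a3 still met the limit (14.5 and 7.65), while Slc22a5 (1.51 and 1.90) and Slc22a23 (1.86 and 1.92) did not, and Slc22a7 met it toward the portal end (0.475 and 0.366).

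**Figure D4:**
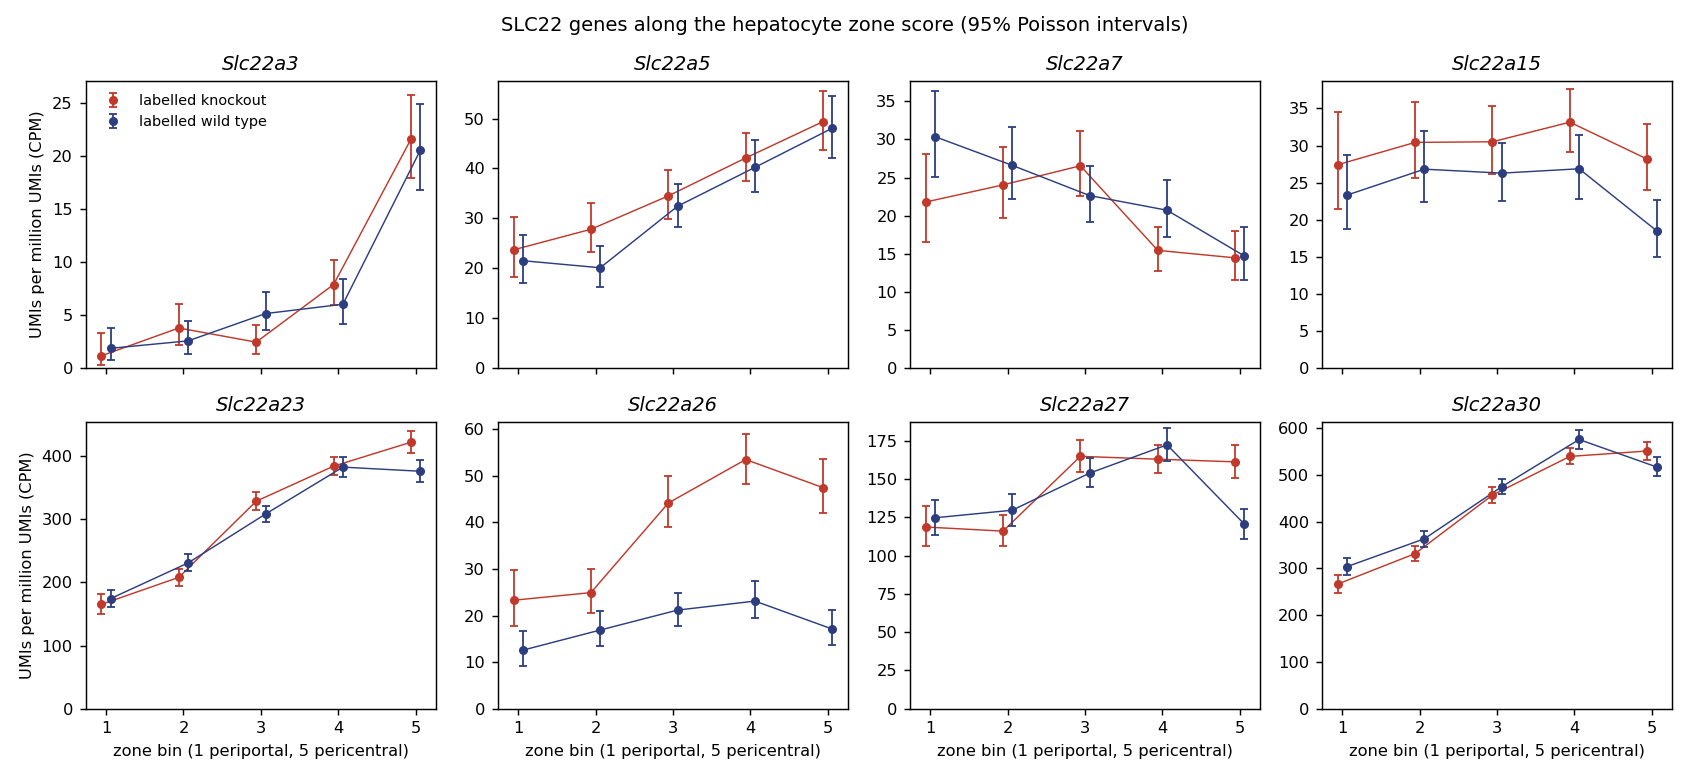
Levels of 8 SLC22 genes over 5 hepatocyte zone bins (x axis, bin 1 periportal to bin 5 pericentral), as UMIs per 1000000 UMIs (y axis, linear), in the library labelled knockout (red, left) and in the wild-type library (blue, right), with 95% Poisson intervals. Slc22a3 climbs in the last bin to 21.6 and 20.5 CPM, Slc22a7 declines toward bin 5, and Slc22a26 is higher in the library labelled knockout in every bin.

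Slc22a7, the organic anion transporter, ran toward the portal end. It had 21.8, 24.0, 26.5, 15.4 and 14.4 CPM over the bins of the library labelled knockout and 30.4, 26.6, 22.6, 20.7 and 14.7 CPM over those of the wild-type library. Its end ratios were 0.663 (0.468 to 0.946) and 0.483 (0.356 to 0.653). Slc22a15, present in many classes, showed no end difference at this depth, with 1.03 (0.774 to 1.38) and 0.794 (0.587 to 1.07). Slc22a27 had 1.36 (1.19 to 1.55) and 0.966 (0.855 to 1.09), so its close relative Slc22a30 was the more pericentral of the pair. Slc22a17 had too few UMIs for a ratio.

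Slc22a26 was higher in the library labelled knockout in every bin. Its levels were 23.3, 24.9, 44.1, 53.4 and 47.4 CPM over bins 1 to 5 in that library, against 12.6, 16.9, 21.2, 23.1 and 17.1 CPM in the wild-type library. The ratios were 1.85 (1.25 to 2.76), 1.48 (1.098 to 1.99), 2.08 (1.69 to 2.57), 2.31 (1.90 to 2.84) and 2.77 (2.17 to 3.58). The end ratio was 2.04 (1.54 to 2.73) in the library labelled knockout and 1.36 (0.944 to 1.98) in the wild-type library, and these intervals overlapped. For Slc22a27 the interval excluded 1 in bin 5 alone, with 161 and 120.5 CPM and a ratio of 1.34 (1.21 to 1.49).

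Over 10 bin and library points the closest runs to the hepatocyte members were those of Cyp27a1, a sterol hydroxylase of bile acid synthesis, to Slc22a23 (r = 0.996), Sort1 to Slc22a30 (0.993), Sfi1 to Slc22a26 (0.986), Mtf2 to Slc22a27 (0.984) and Slc41a2 to Slc22a7 (0.936). Each was the largest r among 9504 genes over the same bins seen in both libraries, so no particular link is read from it.

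Outside hepatocytes the comparison took the 7 classes that held 100 or more cells in both libraries. The size rule was met once, by Slc22a23 in monocytes, and toward the wild-type library by no member, against 0.607% and 0.343% of gene and class pairs. Slc22a23 in monocytes had 115 and 11 UMIs (113 and 9.001 CPM, ratio 12.5, 6.74 to 25.8), against 2.30% of 6230 genes in that class. Of the 115 UMIs, 101 were in 1 barcode with 57602 UMIs and a doublet score of 0.249, just under the limit of 0.276. Without it the ratio was 1.62 (0.682 to 3.93) and no member met the rule in these 7 classes. Slc22a23 and Slc22a30 in plasmacytoid dendritic cells also passed the limits of the rule, in a class under 100 cells in the library labelled knockout. The set of other hepatocyte genes likewise stood higher in that class of the library labelled knockout, as given above. T cells had 52 and 33 UMIs of Slc22a15, 16.4 and 9.69 CPM, with a ratio of 1.70 (1.08 to 2.71), where 12.4% of 9341 genes had an interval above 1. The class was made up differently in each library, with cluster 6, led by Cd8b1 and Gzma, holding 82 of 423 and 27 of 499 T cells. Slc22a15 had 18 and 6 UMIs in cluster 6 (1.35, 0.513 to 4.15), 14 and 3 in cluster 25 (6.85, 1.91 to 37.2) and 20 and 24 in cluster 28 (1.04, 0.543 to 1.957). Slc22a30 in Kupffer cells (0.785, 0.619 to 0.995) and Slc22a27 in endothelial cells (0.702, 0.489 to 0.998) had intervals below 1, at 2.29% and 2.92% of the hepatocyte level for Slc22a30 and 1.62% and 2.43% for Slc22a27. In Kupffer and endothelial cells 14.5% of 12329 genes and 12.3% of 13626 genes had an interval below 1.

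The genome neighbours of the chromosome 19 group were set beside Slc22a26. Of 30 other genes within 500 kb of the 3 members with at least 20 hepatocyte UMIs, 5 had intervals above 1 and 5 below, against 26.4% and 15.9% of all genes, the median ratio was 0.989 and the range 0.675 to 1.66, so none reached the ratio of Slc22a26. Slc22a28 and Slc22a29, the family members between Slc22a27 and Slc22a30, had 28 and 42 UMIs (0.675, 0.403 to 1.11) and 456 and 386 UMIs (1.20, 1.04 to 1.37).

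Of 15 other SLC22 genes, 7 had at least 50 hepatocyte UMIs, and none met the size rule in either direction. Among them the targeted Slc22a18 had 52.9 and 57.2 CPM and a ratio of 0.924 (0.858 to 0.994). None of 16 other hepatocyte carriers of organic ions and bile components met it, although 12 had intervals above 1 and 2 below, against 26.4% and 15.9% of all genes. Their median log2 ratio was 0.20, against 0.05 over all 14642 genes. An interval excludes 1 more easily in genes with many UMIs, such as Slco1b2 with 53685 and 44759. Slco1b2, an uptake carrier of bilirubin and drugs, had 2042 and 1682 CPM (1.21, 1.20 to 1.23), and Abcc2, a canalicular export pump, 1670 and 1574 CPM (1.06, 1.05 to 1.08). Of 9 genes of carnitine synthesis and the carnitine shuttle, 8 were found in the files, 7 had enough UMIs and none met the rule. Crot, the peroxisomal carnitine octanoyltransferase, had 533 and 432 CPM (1.23, 1.20 to 1.26), and Cpt1a, the mitochondrial carnitine palmitoyltransferase, 382 and 331 CPM (1.15, 1.12 to 1.19). Ratios of the carriers and carnitine genes were not recomputed with the same cluster weights in both libraries. Those weights moved Slc22a23 from 1.08 to 0.951 and Slc22a30 from 0.9999 to 0.892. The part of cluster make-up in the carrier and carnitine ratios was not tested.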

How the data were processed

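Liver of 1 Slc22a18-/- and 1 Slc22a18+/+ sample was read cell by cell with a Chromium 3′ v3 kit, per the labels' protocols. Cell Ranger 8.0.1 wrote the matrices, per the file headers, and the submitters' processing notes name STAR and mm10. The deposited values are counts, UMIs per gene and barcode as made by the authors, with no normalization and at least 500 UMIs per barcode. Kept cells had at least 500 UMIs, 300 genes and at most 20% mitochondrial UMIs. Scrublet (scanpy 1.11.5, expected rate 8%, limit 0.276 in both libraries) marked 354 of 11458 and 429 of 12431 cells as doublets, which were removed. Cells of both libraries were clustered jointly, with no integration, from 2000 variable genes (SLC22 genes left out), 30 components and 15 neighbours at Leiden resolution 1. Clusters were named from marker lists, and limits for mixed clusters and the list of 10 other hepatocyte genes were chosen after seeing the data.

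UMIs were summed per class and library and divided by the class total (CPM). Intervals are exact 95% Poisson, binomial or, for ratios, Clopper-Pearson intervals and cover counting error only. Libraries were compared in classes that held 100 or more cells in both. The size rule was checked on simulated hepatocyte counts of 33696 genes, drawn with counting error only from 1 profile shared by both libraries. It called 50 of 50 genes raised 4-fold, 48 of 50 lowered to 0.25-fold, 0 of 50 raised 1.5-fold and 0 of 14462 unchanged genes. Differences between animals, cluster make-up or single barcodes were not simulated, so these counts give no rate of false calls for the real libraries. Zone bins used hepatocytes with at least 10 landmark UMIs, and end ratios at least 20 UMIs. The named genes of other lists were those past the size rule, otherwise the 2 with the most UMIs (1 of these is not reported here), and genes run alike by the largest Pearson's r of log2(CPM + 1). Positions come from GENCODE vM21, which held 31961 of 33696 identifiers. Members, lists and tests were chosen with earlier results of these data known.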

Additional observations from a re-analysis of the deposited data

Results flagged for a closer look

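Some members had intervals on opposite sides of 1 in different zone bins or cell classes, and these differences were not tested. Slc22a23 had a ratio of the library labelled knockout over the wild-type library of 0.901 (0.825 to 0.984) in zone bin 2, against 1.07 (1.002 to 1.13) in bin 3 and 1.12 (1.06 to 1.19) in bin 5. Slc22a30 had 0.878 (0.798 to 0.964) in bin 1, 0.913 (0.851 to 0.979) in bin 2 and 0.937 (0.895 to 0.982) in bin 4, against 1.07 (1.01 to 1.12) in bin 5. Cluster 21, where both genes are lowest, made up 28.2%, 18.8%, 14.3%, 14.5% and 10.02% of bins 1 to 5 in the library labelled knockout. In the wild-type library it made up 25.9%, 23.9%, 21.5%, 15.5% and 18.8%. Its part in these ratios was not tested. Slc22a27 had 1.05 (1.01 to 1.102) in hepatocytes and 2.40 (1.12 to 5.39) in B cells, from 20 and 12 UMIs, against 0.702 (0.489 to 0.998) in endothelial cells. In B and endothelial cells it stood at 5.60% or less of its hepatocyte level.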

How the results depend on the processing

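With 1 library per genotype the values have no replicate check, and intervals cover counting error only. No paired analysis was possible because each group has 1 library. Over 159 alternative values 129 stayed within their limits and 30 moved. Ratios were held to the interval of the main value. Counts of members were held to a fold limit, whichever genes made them up. A crossing of 1 was counted as a reversal only for Slc22a26, the called member, and 0 were found. The 129 include the hepatocyte ratios without 1 monocyte barcode, which could not change. The count of members past the size rule in hepatocytes was 1 (Slc22a26) and became 0 with the same cluster weights in both libraries and 0 in clusters 9 and 21 alone, an alternative chosen after seeing the data. The Slc22a26 ratio ran from 1.04 to 2.44 over 13 alternatives. Outside hepatocytes the count of 1 became 3 with doublet calls kept (Slc22a30 in monocytes and NK/ILC1 cells added), and 0 at 10% mitochondrial UMIs, 0 at 1000 UMIs, 0 with each library clustered alone and 0 without the 1 monocyte barcode, also chosen after seeing the data. At Leiden resolution 0.5 the 1 call was Slc22a30 in monocytes, and with cells weighted equally Slc22a15 in T cells. The count of 3 zoned members became 1 (Slc22a3) with 3 bins in place of 5. The causes were not tested. Ratios of Slc22a30 ran from 0.892 to 1.06, of Slc22a23 from 0.951 to 1.12, of Slc22a27 from 0.960 to 1.15, of Slc22a5 from 0.828 to 1.14 and of Slc22a3 from 0.649 (clusters 9 and 21 alone, and 0.736 with cells weighted equally) to 1.22, so their side of 1 depends on these settings. The 5 members highest in hepatocytes were the same in 6 alternatives. Reclustered alternatives gave each cluster the class most of its cells held in the main clustering, so classes were not named anew. The alternative without 1 monocyte barcode left hepatocyte levels unchanged.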
